A study of Mus musculus with 36 samples.

Results

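The S100 genes described here are 9 small calcium-binding protein genes, S100a8, S100a9, S100a3, S100a4, S100a6, S100a10, S100a11, S100a14 and S100a16, taken by name out of 23903 genes that appear in at least 1 of the study's 2 count tables. All 9 were listed in both tables and all 9 passed the filter on low counts in both. The study followed the progeny of 2 hair follicle (HF) stem cell pools through 2 consecutive wounds of mouse tail skin. Lrig1 GL cells are the genetically labelled progeny of Lrig1+ cells of the upper HF, and Lgr5 GL cells those of Lgr5+ cells of the lower HF. Both come from mice in which the Lrig1 or the Lgr5 locus drives EGFP-ires-CreERT2 and which carry Rosa26-fl/STOP/fl-tdTomato, so that hydroxytamoxifen, applied once to the tail skin at 6 to 8 weeks of age, turns on tdTomato in the cells that express Cre and in their descendants. All groups of a population carry the same alleles and received the same drug. The 6 groups of each population are unwounded skin 1 week after labelling (0w), skin at 1, 2, 4 and 8 weeks after a first full-thickness punch wound (named by week, from 1w pw1 to 8w pw1), and skin 1 week after a second wound that was made over the first at 8 weeks (1w pw2). The only unwounded group is 0w, so later groups also differ from it in age and in time since labelling. In every change against 0w these cannot be told apart from wounding. Each group has 3 libraries from sorted tdTomato+ cells, 36 in all. The study's methods describe them as mini-bulk libraries made from a small number of sorted cells. The study's figure legends give 3 mice per group, and the piece of skin that was dissociated took in HFs away from the wound as well as the healed area, so that progeny inside and outside the wound cannot be told apart.

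S100 proteins are small EF-hand proteins that bind calcium and then dock on partner proteins. S100a8 and S100a9 pair into calprotectin, which binds zinc and manganese and starves microbes of them, and which acts as an alarmin on Toll-like receptor 4 and the receptor Ager once released. Neutrophils hold it in bulk, and keratinocytes make it when the epidermis is wounded or inflamed. S100a10 and S100a11 bind annexins at membranes, S100a6 binds Cacybp, S100a4 is abundant in fibroblasts and other motile cells, S100a3 belongs to the cuticle of the hair shaft, and S100a14 and S100a16 are abundant in epithelia.

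All 9 genes lie on mouse chromosome 3 (GRCm38, GENCODE M21). The core cluster of 7 members spans 169 kilobases from 90526856 to 90695721, and S100a8 (90668978 to 90670035) and S100a9 (90692632 to 90695721) face each other there with 22.6 kilobases between their ends. S100a10 (93555080 to 93564643) and S100a11 (93520488 to 93526287) lie apart from the cluster. The 250 bases before the RefSeq start of S100a8, S100a9 and S100a11 are printed because these 3 genes carry the changes of largest size or the calls described next. Capitals mark matches to a TATA box (TATAAA), a C/EBP element (TTGCNNAA), a grainyhead element (AACNNGTT) or an AP-1 element (TGANTCA), each searched on both strands.
S100a8, chr3:90668821-90669070, plus strand: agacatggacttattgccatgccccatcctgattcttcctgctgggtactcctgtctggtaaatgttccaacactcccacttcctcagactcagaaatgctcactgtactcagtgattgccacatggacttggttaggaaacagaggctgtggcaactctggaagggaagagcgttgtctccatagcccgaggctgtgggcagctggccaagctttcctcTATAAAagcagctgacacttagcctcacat
S100a9, chr3:90695722-90695971, minus strand: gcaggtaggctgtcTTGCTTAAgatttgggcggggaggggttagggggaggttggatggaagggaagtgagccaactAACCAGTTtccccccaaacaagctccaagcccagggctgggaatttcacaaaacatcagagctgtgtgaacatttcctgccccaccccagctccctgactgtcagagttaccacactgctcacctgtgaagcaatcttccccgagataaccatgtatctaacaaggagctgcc
S100a11, chr3:93520246-93520495, plus strand: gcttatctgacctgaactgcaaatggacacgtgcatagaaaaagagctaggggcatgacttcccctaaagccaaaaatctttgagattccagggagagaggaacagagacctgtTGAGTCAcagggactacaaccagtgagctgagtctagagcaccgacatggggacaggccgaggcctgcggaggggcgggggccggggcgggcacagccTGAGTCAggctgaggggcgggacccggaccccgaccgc
The S100a8 window held a TATA box that begins 30 bases before the start, and 12.4% of the 32851 RefSeq windows of this length held one. In the S100a9 window a C/EBP match began 236 bases and a grainyhead match 173 bases before the start, against 9.56% and 3.64% of all windows. The S100a11 window held 2 AP-1 matches, 136 and 38 bases before the start, and 6.75% of all windows held at least 1. The letters of the S100a8 and S100a9 windows thus share none of these 4 motifs, and a match describes the letters and not a bound site. Of the 11 windows of members, 3 held a TATA box, 2 a grainyhead match, 2 an AP-1 match and 1 a C/EBP match.

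The Lrig1 GL libraries held 765252 to 3365666 counts and the Lgr5 GL libraries 1297798 to 6960537. Levels are given as CPM, the count scaled to 1e+06 counts of library total after TMM scaling, in the order of the libraries of a group. A count of 3, taken as the detection floor, was 1.01 to 3.39 CPM in Lrig1 GL and 0.389 to 2.92 CPM in Lgr5 GL libraries. A single gene model, Gm12415, took 12 to 52.1% of the counts of an Lgr5 GL library and at most 0.00021% of those of an Lrig1 GL library. TMM scaling was done for each population apart, so the CPM of the 2 populations are not on 1 scale. CPM set side by side for them describe levels only, and differences were tested in the fit of both together. Libraries are replicates 1, 2 and 3 where the labels give the number and a, b and c where a column could be matched to its group but not to a numbered sample. Keratinocyte markers (Krt5, Krt14, Krt15, Trp63, Col17a1, Epcam, Cdh1) were all counted in both populations, at a sum of at least 10027 CPM in every library. A gene was called where edgeR's quasi-likelihood test gave a Benjamini-Hochberg adjusted p under 0.05 over all genes tested and, for changes against 0w and the time course, a log2 fold change above 1 in size. Fewer cells of one type and less RNA per cell cannot be told apart in these bulk libraries. Where groups are said not to overlap, 5% of the exact splits of 3 against 3 do so in 1 direction. The share of all genes that did so was not computed, so such statements describe levels only.

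The alarmin S100a8 was at or near 0 in uninjured Lrig1 GL cells and rose after both wounds. Its levels at 0w were 0, 0.812 and 0 CPM, and at 1w pw1 they were 2120, 342 and 427 CPM. They were 119, 134 and 538 CPM at 2w pw1 and 70.7, 65.2 and 221 CPM at 4w pw1. All libraries of these 3 time points lay above all 0w libraries. At 8w pw1 the libraries held 297, 0 and 12.9 CPM and overlapped 0w. One week after the second wound they held 888, 804 and 829 CPM, all above 0w and all above 8w pw1, and all inside the range of 1w pw1. The group means thus stood in the order 1w pw1 (963 ± 1003 CPM, SD, n = 3), 1w pw2 (840 ± 43 CPM), 2w pw1 (263 ± 238 CPM), 4w pw1 (119 ± 88.6 CPM), 8w pw1 (103 ± 168 CPM) and 0w (0.271 ± 0.469 CPM), and of the neighbours in this order 1w pw2 and 2w pw1 did not overlap while all others did.

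Since the 0w group held 2 S100a8 counts in all, the pooled ratio to 0w was 2518 at 1w pw1, with a 95% counting interval of 697 to 20803, and 2503 at 1w pw2, with an interval of 692 to 20670. These intervals cover the counting error of reads only, and not the spread between libraries or the small number of cells in each. The ratio at 1w pw1 was 1201 without 1w pw1 replicate 1, and without 0w replicate 2, which held both counts, the levels were at least 986.6-fold and 980.5-fold above the floor of 3 counts over the group. Fitted log2 fold changes, which depend on the prior count where 0w is near 0, were 11.26 (SE 1.98, adjusted p = 0.023) at 1w pw1, 11.06 (SE 1.97, adjusted p = 0.017) at 1w pw2 and 8.05 (SE 1.90, adjusted p = 0.036) at 8w pw1. At 2w pw1 (9.39, SE 1.92, adjusted p = 0.079) and 4w pw1 (8.25, SE 1.90, adjusted p = 0.19) the change was not called, except without 8w pw1 replicate a (adjusted p = 0.0335 and 0.0435) or by the likelihood ratio test (0.00015 and 0.000933). Of the 9 S100 genes 1 was called at 1w pw1, where 0.217% of the 14306 genes tested were called, and 1 at 1w pw2, where 1.23% were.

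S100a8 did not differ detectably between the second and the first wound in Lrig1 GL cells, with a log2 difference of -0.20 (SE 1.12, adjusted p = 0.98). Against 8w pw1 the second wound gave 3.01 (SE 1.21, adjusted p = 0.85). No S100 gene was called in either comparison by edgeR's quasi-likelihood test, where 0% and 0.00699% of all genes were called. At an unadjusted p under 0.05 the counts were 0 and 2 of 9, beside 8.87% and 5.72% of all genes. DESeq2 called none either. It gave no adjusted p for S100a8 against 0w at 1w pw1, 8w pw1 or 1w pw2, so its count is not read as a result for S100a8.

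The S100a8 calls turned on single libraries. Without Lrig1 GL 0w replicate 1, 2 or 3 the adjusted p at 1w pw1 was 0.119, 0.0819 or 0.0502, and without the 1w pw1 library of 2120 CPM (replicate 1) it was 0.0704. The call at 1w pw2 was lost without 0w replicate 1 (adjusted p = 0.0633), 0w replicate 2 (0.0520) or 1w pw2 replicate 2 (0.0583). The call at 8w pw1 was lost without 0w replicate 1 (0.106), 2 (0.0607) or 3 (0.0807), without 8w pw1 replicate c (0.0529), without 1w pw2 replicate 3 (0.0528) and without 8w pw1 replicate a, the library of 297 CPM (log2 fold change 4.08, adjusted p = 0.215). DESeq2 gave no adjusted p for S100a8 in these 3 comparisons, and limma-voom with quality weights called none of them (adjusted p = 0.498, 0.184 and 0.615 at 1w pw1, 1w pw2 and 8w pw1). With 2 surrogate variables in edgeR's fit the calls at 1w pw2 and 8w pw1 were lost (adjusted p = 0.128 and 0.554). With replicate number as a block those at 1w pw1 and 8w pw1 were lost (0.0609 and 0.0973). With a trend on GC content removed that at 8w pw1 was lost (0.0754). All 3 held by the likelihood ratio test.

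**Figure D1:**
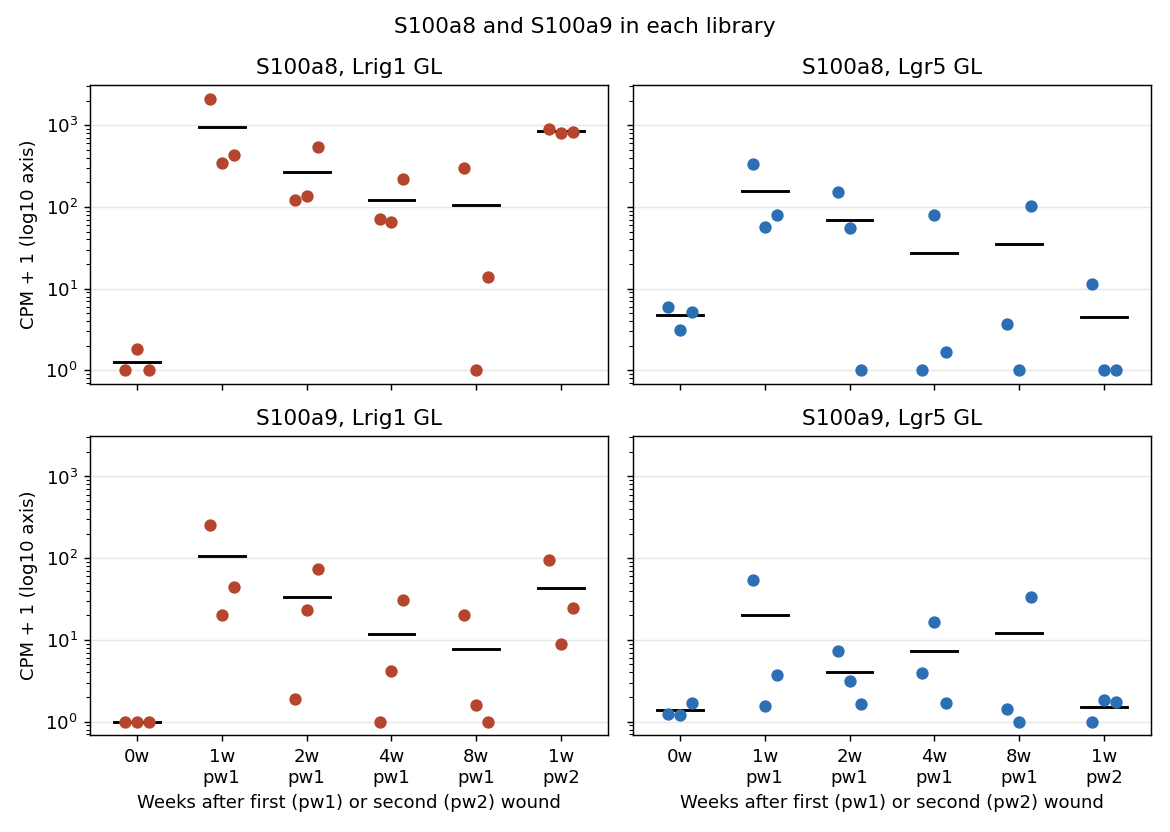
Levels of S100a8 (top) and S100a9 (bottom) in Lrig1 GL (left) and Lgr5 GL cells (right), with 1 point per library, the mean of 3 libraries as a bar and CPM + 1 on a log10 axis. All S100a8 points of Lrig1 GL cells at 1w pw1 and 1w pw2 lie above those at 0w, whereas the Lgr5 GL points at 1w pw2 (10.4, 0 and 0 CPM) overlap those at 0w.

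S100a9, the partner of S100a8 in calprotectin, was less abundant. Per kilobase of exon, the scale on which genes can be compared, S100a8 stood at 1388 ± 1445 and S100a9 at 204 ± 250 CPM per kilobase (SD, n = 3) in Lrig1 GL cells at 1w pw1. All 3 Lrig1 GL libraries at 0w had 0 S100a9 counts. At 1w pw1 they had 256, 19.2 and 43.4 CPM, at 2w pw1 0.894, 22.0 and 73.3 CPM, at 4w pw1 0, 3.18 and 29.6 CPM, at 8w pw1 19.3, 0.611 and 0 CPM, and at 1w pw2 93.9, 7.86 and 23.7 CPM. The level was at least 185-fold higher at 1w pw1 and at least 80.7-fold higher at 1w pw2 than the floor of 3 counts over the 0w group. Without the highest library of its group each bound was lower, 72.4-fold without 1w pw1 replicate 1 and 27.1-fold without 1w pw2 replicate 1. All libraries of both time points lay above 0w, but the spread among them left the gene uncalled (adjusted p = 0.16 and 0.11). DESeq2 did call S100a9 at 1w pw1 (adjusted p = 0.00198), 2w pw1 (0.0230) and 1w pw2 (0.00528). Across the 18 Lrig1 GL libraries the 2 alarmin genes went together with a Pearson's r of 0.84 on log2 CPM, and S100a8 was the gene most like S100a9. The libraries with the highest S100a8 at 1w pw1 (replicate 1), 2w pw1 (replicate c), 4w pw1 (replicate c), 8w pw1 (replicate a) and 1w pw2 (replicate 1) were also those with the highest S100a9. These 5 libraries also had the highest share of mitochondrial counts of their group, 8.41%, 8.99%, 8.68%, 14.4% and 8.66% in that order, against 3.82 to 12.9% in the other 10, and its part in the levels was not tested.

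Lgr5 GL cells held lower mean levels of both alarmins at 1w pw1, and neither was called in them against 0w at any time point. S100a8 was counted in all 3 uninjured libraries, at 4.99, 2.08 and 4.14 CPM. It stood at 331, 55.5 and 79.3 CPM at 1w pw1, all above 0w, and at 150, 54.3 and 0 CPM at 2w pw1. In the later groups 1 library of 3 carried most of the signal, with 0, 78.4 and 0.672 CPM at 4w pw1 and 2.65, 0 and 100 CPM at 8w pw1. The pooled ratio to 0w at 1w pw1 was 41.2, with a counting interval of 30.6 to 57.0 (20.3 without 1w pw1 replicate 1), and the fitted log2 fold change was 5.38 (SE 2.13, adjusted p = 0.19). S100a9 had 53.5, 0.566 and 2.71 CPM at 1w pw1 and 0.227, 0.208 and 0.689 CPM at 0w, so that its groups overlapped (log2 fold change 5.64, SE 2.05, adjusted p = 0.15). DESeq2 called S100a9 at 1w pw1 (adjusted p = 0.0211) and edgeR's quasi-likelihood test did not.

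After the second wound both alarmins overlapped 0w in Lgr5 GL cells. S100a8 had 10.4, 0 and 0 CPM and S100a9 0, 0.833 and 0.753 CPM at 1w pw2. All 3 S100a8 values lay below all 3 at 1w pw1, and the log2 difference between the wounds was -5.34 (SE 2.10, adjusted p = 0.22), which missed the threshold. At 1w pw2 the S100a8 level was thus 804 to 888 CPM in Lrig1 GL libraries against 0 to 10.4 CPM in Lgr5 GL libraries. The test of whether its change against 0w differed between the populations gave a log2 difference, Lrig1 GL minus Lgr5 GL, of 11.09 (SE 3.22, adjusted p = 0.12) at 1w pw2 and 5.89 (SE 3.27, adjusted p = 0.39) at 1w pw1, and neither passed. No S100 gene was called by it at 1w pw1 or 1w pw2, where 0.0572% and 0.207% of 13980 genes were called and 3 of 9 had an unadjusted p under 0.05 each time, beside 15.2% and 13.3% of all genes. The same held at 2w pw1 and 4w pw1, where 0% and 0.107% of genes were called and 1 and 0 of 9 had an unadjusted p under 0.05, beside 8.81% and 10.1% of all genes. DESeq2 called 1 of the 9, S100a8 at 1w pw2 (adjusted p = 0.0142).

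Neutrophils were looked for because they carry calprotectin in bulk and the sort on tdTomato should leave them out. Of the 11 neutrophil markers 3 had a row for Lrig1 GL cells, with a summed level of 2.55 to 14.4 CPM over the 18 libraries, and 6 for Lgr5 GL cells, with 0.453 to 14.4 CPM. In Lrig1 GL cells the sum was 2.84 to 14.4 CPM at 0w, 3.69 to 10.2 CPM at 1w pw1 and 3.37 to 8.49 CPM at 1w pw2, so these ranges overlapped. Among the defining markers Ly6g had 3 to 4 counts per Lrig1 GL library at 0w, 4 to 9 at 1w pw1 and 7 to 18 at 1w pw2. Over each group these made 11, 21 and 34 counts, not scaled to library totals. Those totals were 1491780 to 2266757 at 0w, 765252 to 1999352 at 1w pw1 and 1528091 to 3143170 at 1w pw2. Ly6g thus rose after both wounds while the summed list overlapped 0w. Among Lgr5 GL libraries the sum was 6.23 to 14.4 CPM at 1w pw1, above 2.28 to 4.99 CPM at 0w, and 2.33 to 4.28 CPM at 1w pw2, and there Ly6g had 6 to 32 counts per library at 1w pw1 against 0 to 5 at 0w. Csf3r had 1 to 14 counts per Lgr5 GL library at 1w pw1 and 1 to 5 at 0w, and Cxcr2 and Retnlg were not analysed here. Other myeloid markers summed to 0 to 6.0 CPM in Lrig1 GL cells at 1w pw1 and 0.472 to 16.4 CPM at 1w pw2, against 0 to 1.54 CPM at 0w, and to 7.77 to 14.7 CPM at 2w pw1, above 0w in all 3 libraries. The part of such cells in the S100a8 and S100a9 levels was not tested.

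Wound keratins are the usual signs of activated keratinocytes, and some of them rose at the time points at which S100a8 did. Of the 4, Krt6a, Krt6b and Krt16 were called across the Lrig1 GL time course and Krt6b across that of Lgr5 GL cells. Krt6b stood at 60.9 ± 24.0 CPM at 0w, 1025 ± 675 CPM at 1w pw1 and 598 ± 296 CPM at 1w pw2 in Lrig1 GL cells (SD, n = 3), with log2 fold changes of 4.07 (SE 0.68, adjusted p = 0.016) and 3.29 (SE 0.66, adjusted p = 0.026). Their median log2 fold change in Lrig1 GL cells was 2.86 at 1w pw1, where that of all genes was -0.05.

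Genes that receive or induce the alarmin signal were mostly not called. Of 8 listed receptors and adaptors (Ager, Tlr2, Tlr4, Myd88, Bsg, Alcam, Nptn, Mcam) 6 were tested in Lrig1 GL cells and none was called against 0w at any time point. Tlr4 and Ager, named here for their role after their values were seen, were at 0.754 ± 1.31 and 3.07 ± 1.35 CPM in Lrig1 GL cells at 1w pw1 (SD, n = 3), near the floor, while Bsg, a further receptor, was at 291 ± 86.5 CPM. Alcam, an adhesion receptor that also binds S100 proteins, was called across both time courses and fell by 1.93 on the log2 scale (SE 0.44, adjusted p = 0.039) in Lgr5 GL cells at 1w pw1. Of 11 listed inducers and their receptors 6 were tested in each population, Il17ra, Il17rc, Nfkbiz, Cebpb, Stat3 and Zc3h12a, and none was called in a time course. The transcription factor gene Stat3 stood at 94.9 ± 49.8 CPM at 0w and 154 ± 19.5 CPM at 1w pw1 in Lrig1 GL cells. Of 8 other antimicrobial genes 4 were tested in each population and none was called in a time course. Lcn2, which binds bacterial iron carriers, was at 5.60 ± 5.03 CPM at 0w and 48.8 ± 17.3 CPM at 1w pw1 in Lgr5 GL cells (log2 fold change 3.10, SE 1.19, adjusted p = 0.17). The defensin genes Defb1 and Defb6 were higher in Lrig1 GL than in Lgr5 GL cells at 0w, by 4.59 (SE 1.31, adjusted p = 0.048) and 3.84 (SE 1.08, adjusted p = 0.044) on the log2 scale.

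Across the time course S100a8 (adjusted p = 0.037) and S100a11 (adjusted p = 0.031) were called in Lrig1 GL cells, 2 of 9 members where 1.63% of all genes were called. DESeq2 called 3, S100a11, S100a14 (adjusted p = 0.00158) and S100a16 (0.00181), and gave no adjusted p for S100a8. The S100a8 call held in 7 of 18 fits that left out 1 library, namely 1w pw1 replicate 2, 2w pw1 replicate b or c, 4w pw1 replicate c or any of 8w pw1, and without each of the other 11 the adjusted p was 0.0503 to 0.0752. The S100a11 call held in 10 of 18 and was lost without 1w pw1 replicate 1, 1w pw2 replicate 2 or 3, 4w pw1 replicate a or b, or any of 8w pw1, with adjusted p up to 0.105. Across that of Lgr5 GL cells 0 of 9 were, where 1.13% of 18025 genes were called, although 5 of 9 had an unadjusted p under 0.05, beside 16.9% of all genes, and DESeq2 called 1, S100a3 (adjusted p = 0.0124). Without Lgr5 GL 4w pw1 replicate a edgeR's test called S100a6 (adjusted p = 0.00973) and S100a10 (0.0432), and without 0w replicate a it called S100a3 (0.0443). The counts against 0w in Lrig1 GL cells were 0 of 9 at 2w pw1 and at 4w pw1, where 0% and 0.0419% of genes were called and 2 of 9 had an unadjusted p under 0.05 at each, beside 10.5% and 8.37% of all genes (DESeq2 called 1 and 0), and 2 of 9 at 8w pw1, where 2.82% were called. The count against 0w in Lgr5 GL cells was 0 of 9 at each of the 5 time points, where 1.29% of genes were called at 1w pw1, 0% at 2w pw1, 0.155% at 4w pw1, 0% at 8w pw1 and 0% at 1w pw2, and 5, 3, 2, 1 and 0 of 9 had an unadjusted p under 0.05 in that order, beside 18.6%, 8.79%, 10.7%, 5.94% and 6.42% of all genes. DESeq2 called 1, S100a9 at 1w pw1. For the second wound against the first and against 8w pw1 it was also 0 of 9 in Lgr5 GL cells, where 0.266% and 0% of genes were called. At an unadjusted p under 0.05 those counts were 6 and 1, beside 16.8% and 3.83% of all genes, and DESeq2 called 3 and 0.

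S100a11, which binds annexin A1 at membranes, fell at 8w pw1 in Lrig1 GL cells. It stood at 667, 370 and 560 CPM at 0w and at 473, 404 and 630 CPM at 1w pw1, ranges that overlapped. At 2w pw1 (623, 630 and 489 CPM) and 4w pw1 (831, 829 and 486 CPM) it also overlapped 0w. At 8w pw1 it was 205, 144 and 219 CPM, below every other Lrig1 GL library, and at 1w pw2 it was 379, 409 and 288 CPM. The change at 8w pw1 was -1.49 on the log2 scale (SE 0.30, adjusted p = 0.024). It was not called without 0w replicate 1 (adjusted p = 0.0741) or without 8w pw1 replicate a, b or c (0.0762, 0.0826 or 0.0553). The call was also lost with the replicate block (0.0767), and 2 surrogate variables left a change of -0.63 (adjusted p = 0.66). The share of mitochondrial counts was 10.9 to 14.4% in these 3 libraries and 3.15 to 5.38% at 0w, and its part in the change was not tested.

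In Lgr5 GL cells the same gene stood at 194, 196 and 244 CPM at 0w and at 295, 238 and 296 CPM at 8w pw1. The change against 0w at 8w pw1 therefore differed between the populations by -1.84 on the log2 scale, Lrig1 GL minus Lgr5 GL (SE 0.42, adjusted p = 0.024), and S100a11 was the 1 member of 9 that passed this test, where 1.5% of all genes did. The call was lost without Lrig1 GL 0w replicate 1 (adjusted p = 0.0722), 8w pw1 replicate a (0.0526) or b (0.0628), or Lgr5 GL 8w pw1 replicate a (0.0645). It was also lost with 2 surrogate variables (-1.23, adjusted p = 0.086), the replicate block (0.0635) or the GC trend removed (0.0779). The 0w levels, each on the CPM scale of its own population, were 532 ± 151 CPM in Lrig1 GL and 211 ± 28.6 CPM in Lgr5 GL libraries (SD, n = 3). In the fit of both populations this difference missed the threshold (log2 0.96, SE 0.29, adjusted p = 0.067), except without Lrig1 GL 0w replicate 2 (1.18, adjusted p = 0.0311). At 8w pw1 the levels were 189 ± 39.6 and 276 ± 33.7 CPM. S100a14 (-1.53, adjusted p = 0.063) and S100a16 (-1.51, adjusted p = 0.064) had like differences that missed the threshold, except S100a14 without Lrig1 GL 0w replicate 2 (0.0491) or 2w pw1 replicate c (0.0412) and S100a16 without Lrig1 GL 0w replicate 2 (0.0381) or Lgr5 GL 4w pw1 replicate a (0.0437). DESeq2 called both (adjusted p = 0.0288 and 0.0284), as did the likelihood ratio test (0.0284 and 0.0309), and limma-voom called S100a16 (0.0467).

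S100a14 and S100a16, neighbours in the cluster and both epithelial, went together in Lrig1 GL cells. S100a14 stood at 297, 279 and 410 CPM at 0w, 579, 428 and 279 CPM at 4w pw1, 149, 122 and 145 CPM at 8w pw1 and 190, 209 and 164 CPM at 1w pw2, and the last 2 groups lay below 0w without overlap. S100a16 stood at 638, 480 and 861 CPM at 0w, 1111, 1010 and 581 CPM at 4w pw1 and 261, 306 and 355 CPM at 8w pw1. Their changes at 8w pw1, -1.24 (SE 0.33, adjusted p = 0.051) and -1.10 (SE 0.31, adjusted p = 0.059), missed the threshold by little, as did that of S100a6 (-1.04, SE 0.31, adjusted p = 0.067), which went from 830, 876 and 475 CPM to 333, 282 and 448 CPM. DESeq2 called S100a14 (adjusted p = 0.00938) and S100a16 (0.0155) there, and so did edgeR's test for S100a14 without 0w replicate 2 (0.0482), 2w pw1 replicate a (0.0477) or c (0.0274) or 4w pw1 replicate c (0.0485), and for S100a16 without 0w replicate 2 (0.0412) or 2w pw1 replicate c (0.0421). S100a10 at 8w pw1 had 300, 151 and 223 CPM and overlapped 0w (427, 258 and 251 CPM), with a change of -0.47 that was not called (adjusted p = 0.45). The median log2 fold change of the 9 members at 8w pw1 was -1.04 in Lrig1 GL cells, beside -0.01 for all genes tested, and 0.32 in the other population, beside 0.01. The summed keratinocyte markers of Lrig1 GL cells were also lower, 12511 to 17958 CPM at 8w pw1 against 20040 to 24310 CPM at 0w, as were the upper HF markers, 4336 to 6171 CPM against 8499 to 13763 CPM, and the part of a changed cell makeup was not tested.

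**Figure D2:**
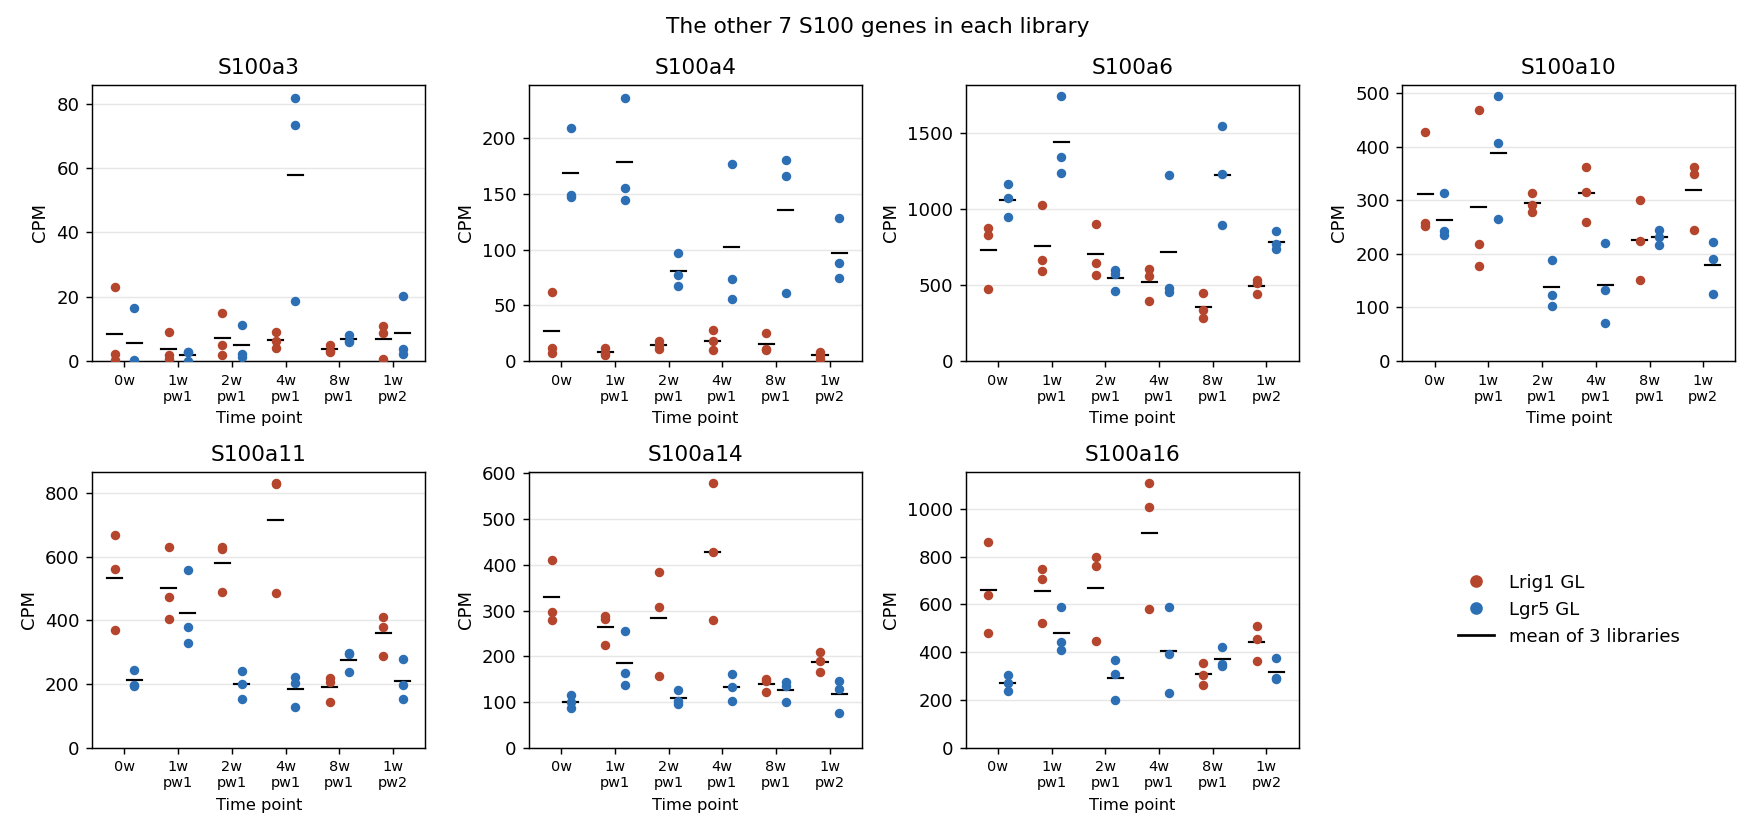
CPM of the other 7 S100 genes at each time point, with 1 point per library, Lrig1 GL in red and Lgr5 GL in blue, and a bar for the mean of 3 libraries. S100a11, S100a14 and S100a16 in Lrig1 GL cells are lowest at 8w pw1, S100a4 is higher in Lgr5 GL cells at every time point, and S100a3 stands out in Lgr5 GL cells at 4w pw1.

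The genes most like these 3 in Lrig1 GL cells, by Pearson's r of log2 CPM over the 18 libraries, differed from gene to gene. For S100a11 they were Cox6b1 (0.96), Elob and Pfn1 (both 0.95), for S100a14 Lgals7 (0.95), S100a16 (0.95) and Eef1a1 (0.92), and for S100a16 S100a14, Lgals7 and Psmb3 (0.94). By Spearman's rho 1 of the 3 stayed among the 3 most like for S100a11 (Pfn1) and for S100a16 (S100a14), and 2 for S100a14. The points share depth and RNA quality within a library. S100a8 was most like Rab31 (0.91), Slc25a48 (0.89) and Sprr2a1 (0.88), the last a cornified envelope gene. Across the Lgr5 GL libraries S100a16 was again most like Lgals7 (0.86), and S100a4 was most like Fth1 (0.91), Lgals1 (0.88) and Cd63 (0.86).

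In Lgr5 GL cells the same genes had their highest mean at 1w pw1 and not at 4w pw1. S100a11 stood at 558, 328 and 377 CPM there, above 194, 196 and 244 CPM at 0w, with a log2 fold change of 1.0 (SE 0.30, adjusted p = 0.092). S100a14 (138, 162 and 255 CPM against 115, 101 and 87.2 CPM) and S100a16 (408, 442 and 588 CPM against 271, 239 and 303 CPM) likewise had no overlap with 0w, with changes of 0.88 (SE 0.31, adjusted p = 0.14) and 0.82 (SE 0.31, adjusted p = 0.16). S100a6 was at 1742, 1237 and 1342 CPM against 949, 1069 and 1167 CPM. None of the 4 was called. The median over the 9 members was 0.82 at 1w pw1, beside -0.08 for all genes tested. At 2w pw1 S100a6 (-0.96, adjusted p = 0.37), S100a10 (-0.93, adjusted p = 0.44) and S100a4 (-1.07, adjusted p = 0.47) lay below 0w without overlap. S100a6, S100a10 and S100a4 also lay below 0w without overlap at 1w pw2, and S100a10 did so at 4w pw1. None of these falls was called.

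The second wound gave lower values than the first for several of them in Lgr5 GL cells, without a call. S100a10, the partner of annexin A2, had 222, 191 and 125 CPM at 1w pw2 and 494, 265 and 406 CPM at 1w pw1 (log2 difference -1.12, SE 0.36, adjusted p = 0.15). S100a11 had 279, 197 and 152 CPM (-1.0, SE 0.30, adjusted p = 0.12) and S100a6 856, 766 and 733 CPM (-0.88, SE 0.32, adjusted p = 0.19). All 3 lay below 1w pw1 without overlap, as did S100a4, S100a8 and S100a16, and none was called. DESeq2 called S100a11 (adjusted p = 0.0192), S100a10 (0.0456) and S100a9 (0.0419). S100a10 in Lrig1 GL cells lay within 0.47 of 0w on the log2 scale at every time point, with no call. S100a14, S100a16 and S100a6 lay below 1w pw1 without overlap at 1w pw2 in Lrig1 GL cells, where S100a16 for example had 511, 454 and 365 CPM against 747, 520 and 706 CPM, and none was called. Of the 10 binding partners, Cacybp, the partner of S100a6, was called in Lrig1 GL cells at 1w pw2, with a log2 fold change of 1.68 (SE 0.38, adjusted p = 0.039), and none of the 10 was called in a time course. Among the most abundant of them in Lrig1 GL cells at 0w was Anxa2, at 2149 ± 652 CPM.

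**Figure D3:**
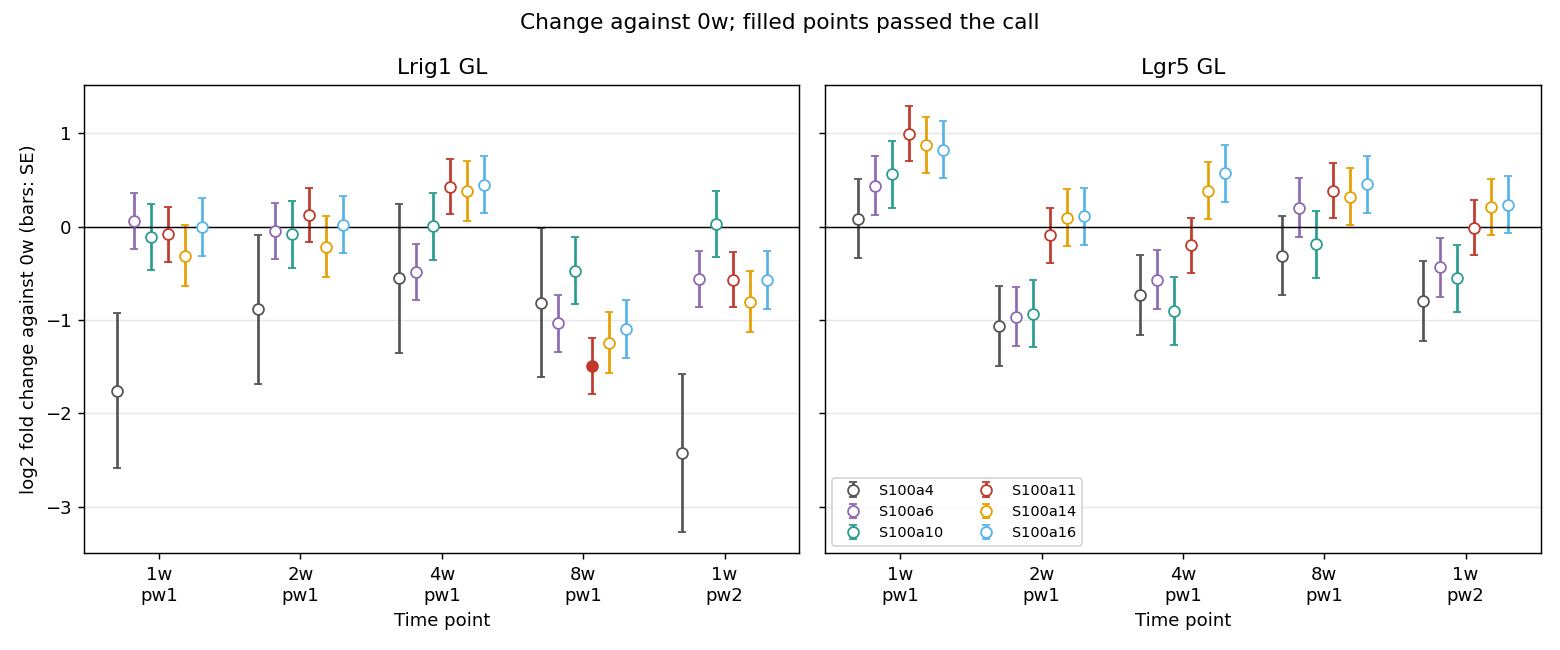
Log2 fold change against 0w with its SE for 6 S100 genes in Lrig1 GL (left) and Lgr5 GL cells (right) at the 5 time points after wounding, where filled points were called. The single filled point is S100a11 at 8w pw1 in Lrig1 GL cells (-1.49), while the 1w pw1 points of S100a11, S100a14 and S100a16 on the right lie between 0.82 and 1.0.

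Before injury the 2 populations differed in 2 of the 9 genes, where 3.05% of 13980 genes were called. Each population is a table of its own, so population and table cannot be told apart in this comparison. S100a4, known from fibroblasts and motile cells, stood at 11.3, 62.1 and 7.05 CPM in Lrig1 GL libraries, all below 149, 147 and 209 CPM in those of Lgr5 GL cells. The log2 difference, Lrig1 GL minus Lgr5 GL, was -3.01 (SE 0.61, adjusted p = 0.0055). It passed in all 36 fits that left out 1 library, with values from -4.54 to -2.57, and in all 9 other alternatives, with an adjusted p of at most 0.0444. After wounding S100a4 was at 1.89 to 27.5 CPM over the 15 Lrig1 GL libraries, while those of Lgr5 GL cells held 55.7 to 236 CPM, and no change against 0w was called in either population. DESeq2 called it in Lrig1 GL cells at 1w pw2 (-2.46, adjusted p = 0.0450), where edgeR's test gave -2.42 (SE 0.85, adjusted p = 0.14).

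Fibroblast markers also had higher levels in Lgr5 GL than in Lrig1 GL libraries at 0w. Of the 7 (Col1a1, Col1a2, Col3a1, Pdgfra, Pdgfrb, Dcn, Lum) all had a row for Lgr5 GL cells, with a summed level of 122 to 358 CPM at 0w, and 5 had one for Lrig1 GL cells, with 7.70 to 41.6 CPM. Col1a2 stood at 75.1 ± 34.8 CPM in the former and 0.342 ± 0.593 CPM in the latter (SD, n = 3). Dcn had 205 to 512 counts per Lgr5 GL library and 9 to 64 per Lrig1 GL library at 0w. Within Lgr5 GL cells at 2w pw1 the summed markers were at 169 to 385 CPM, while S100a4 was at 67.0 to 97.0 CPM. The part of fibroblasts in the S100a4 level was not tested. In addition, 302 bases, or 51.7%, of the S100a4 exons are shared on the same strand with the read-through gene model Gm42674, so that reads there cannot be assigned to 1 gene, and the S100a4 level is uncertain to that extent in both populations.

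S100a14 went the other way at 0w, with 297, 279 and 410 CPM in Lrig1 GL libraries, all above 115, 101 and 87.2 CPM in those of Lgr5 GL cells. The log2 difference was 1.34 (SE 0.31, adjusted p = 0.015). It was not called without Lrig1 GL 0w replicate 3 (adjusted p = 0.0644), Lgr5 GL 0w replicate b (0.0588) or c (0.0599). S100a16 (638, 480 and 861 CPM against 271, 239 and 303 CPM) and S100a11 differed in the same direction without passing (adjusted p = 0.11 and 0.067), and S100a6 in the opposite direction (adjusted p = 0.11). Of the 6 markers of differentiated interfollicular epidermis (IFE) 3, Krt1, Krt10 and Krtdap, were also higher in Lrig1 GL cells at 0w, Krt1 by 7.29 (SE 1.27, adjusted p = 0.0015) on the log2 scale, and the part of such cells in the S100a14 level was not tested.

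Per kilobase of exon the order of the members at 0w differed between the populations. In Lrig1 GL cells it was S100a11 (1042 ± 295 CPM per kilobase), S100a6 (532 ± 160), S100a16 (408 ± 118), S100a10 (257 ± 82), S100a14 (190 ± 41.1) and S100a4 (45.9 ± 52.5), with S100a3 (1.5 ± 2.23), S100a8 (0.390 ± 0.676) and S100a9 (0) last. In Lgr5 GL cells S100a6 led at 777 ± 79.7 CPM per kilobase, ahead of S100a11 (414 ± 56), S100a4 (288 ± 60.5), S100a10 (217 ± 35.6), S100a16 (168 ± 19.6) and S100a14 (58.5 ± 8.0). Among the first 6 in Lrig1 GL cells the ranges of S100a6 and S100a16, S100a16 and S100a10, and S100a10 and S100a14 overlapped, while S100a11 lay above and S100a4 below the rest. For Lgr5 GL cells only S100a4 and S100a10 overlapped among neighbours of the first 6. The place of S100a4 in both orders is uncertain, since its length includes the 51.7% of its exon bases shared with Gm42674.

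S100a3, the hair cuticle member, was near the floor in most groups and stood out at 4w pw1 in Lgr5 GL cells, at 18.5, 81.7 and 73.3 CPM. At 0w these cells held 16.3, 0 and 0.345 CPM, so that the groups did not overlap, but the change was not called (log2 fold change 3.36, SE 1.40, adjusted p = 0.40). In the other Lgr5 GL groups it was at most 20.2 CPM and in Lrig1 GL cells at most 23.1 CPM. Hair cuticle and cortex markers (Krt32, Krt35, Krt82, Krt85, Krt31, Krt86, Padi3, Msx2), of which 7 of 8 were counted, summed to 91.4 to 647 CPM in the same 3 libraries and 18.3 to 62.6 CPM at 0w. Krt31 (adjusted p = 0.0075) and Krt35 (adjusted p = 0.0075) were called across the Lgr5 GL time course, and Krt35 stood at 214 ± 170 CPM at 4w pw1 (SD, n = 3). The part of hair shaft cells in the S100a3 level was not tested.

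**Figure D4:**
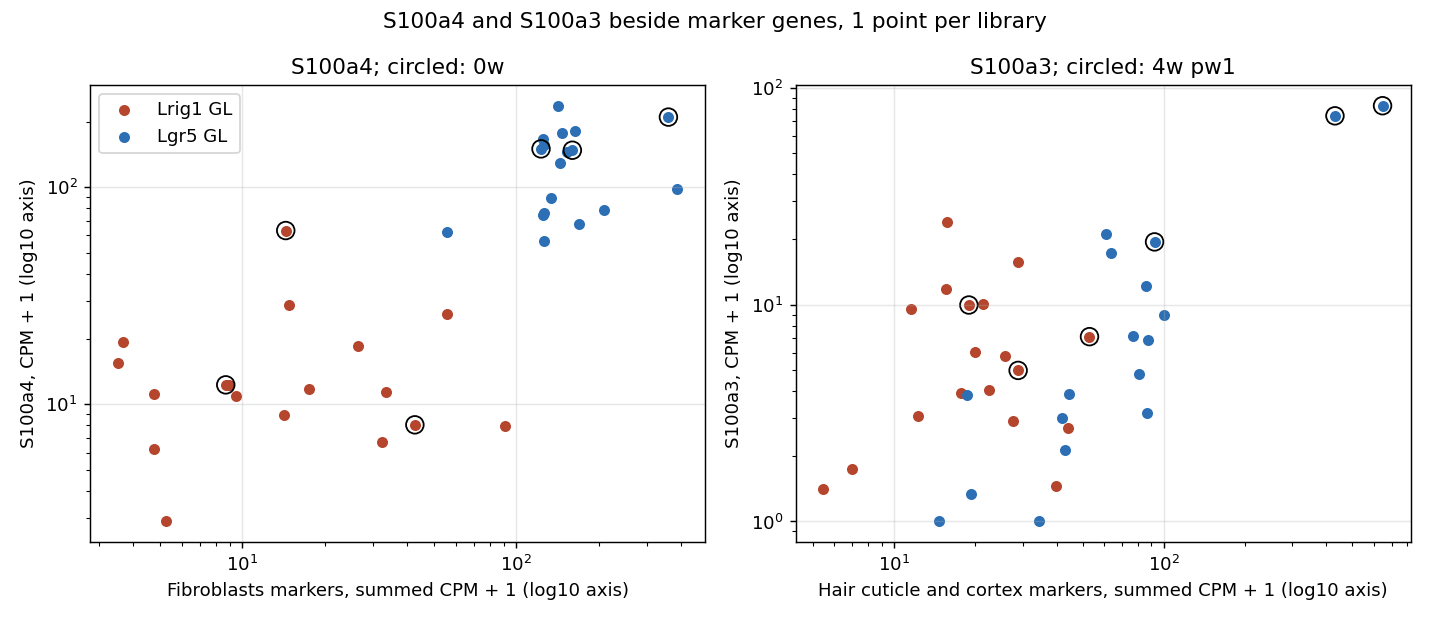
S100a4 against the summed fibroblast markers (left, 0w circled) and S100a3 against the summed hair cuticle and cortex markers (right, 4w pw1 circled), as CPM + 1 on log10 axes, with 1 point per library of Lrig1 GL (red) and Lgr5 GL cells (blue). The Lgr5 GL libraries at 0w lie at 147 to 209 CPM of S100a4 and 122 to 358 CPM of fibroblast markers, and 2 of the Lgr5 GL libraries at 4w pw1 lie apart at 73.3 and 81.7 CPM of S100a3.

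Other S100 genes were scarce. S100a1 was counted in all 36 libraries, at 9.87 to 68.8 CPM (Lrig1 GL) and 16.8 to 88.3 CPM (Lgr5 GL), and its change at 8w pw1 also differed between the populations (log2 -2.94, SE 0.64, adjusted p = 0.023). S100a13 stood at 3.05 to 32.7 CPM (Lrig1 GL) and 5.30 to 26 CPM (Lgr5 GL), and S100b and S100g at most at 25.1 CPM in any library. S100a7a, the mouse relative of psoriasin, was counted in Lgr5 GL cells at 0 to 9.64 CPM. None of those tested was called in a time course. Of the 7 genes that fuse an S100 domain to a long repeat, filaggrin (Flg) among them, none was called in a time course.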

How the data were processed

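Mini-bulk RNA-seq libraries were made by the authors with a modified Smart-seq2 protocol. They trimmed reads with Trim Galore, aligned them with HISAT2 to GRCm38 and counted them per gene name with featureCounts and GENCODE M20, and the deposited values are raw read counts, 1 table per population. Whether counting used strand is not given in the sources used here, and the libraries carried no molecular identifiers. Of 36 columns 15 matched a numbered sample and 21 a group only. The test was edgeR 4.0.16 under R 4.3.3 (filterByExpr at 10 counts, TMM, quasi-likelihood F-test), each population apart over 18 libraries, leaving 14306 and 18025 genes, and both together over 13980 genes for differences between populations. The SE is the log2 fold change divided by the root of F. With 3 libraries per group an exact two-sided permutation test cannot give p below 0.1. Alternatives used DESeq2 1.42.0, limma 3.58.1 and sva 3.50.0, and 1, removal of a trend on GC content, was chosen after seeing the data. Fits were tested on simulated data. Members, gene lists and markers were chosen with earlier results of these data known. Genes outside the members were named where called or among the most abundant of their list. Genes most like a member were the 3 of highest r among those with a mean of at least 10 counts, with symbols that start with Gm or end with Rik skipped. Positions came from GENCODE M21 and promoters from RefSeq (GRCm38.p6), which held windows of 7 of the 9 members.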

Additional observations from a re-analysis of the deposited data

Results flagged for a closer look

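Of the 9 members S100a11 was the 1 whose change differed between the populations by a test of the difference itself. At 8w pw1 its change against 0w was lower in Lrig1 GL than in Lgr5 GL cells by a log2 difference of -1.84 (edgeR's quasi-likelihood test, adjusted p = 0.024), with all 3 Lrig1 GL libraries below 0w and levels of 205, 144 and 219 CPM. It was not called with 2 surrogate variables (-1.23, adjusted p = 0.086), the replicate block (0.0635) or the GC trend removed (0.0779), nor without any 1 of 4 libraries, Lrig1 GL 0w replicate 1, Lrig1 GL 8w pw1 replicate a or b and Lgr5 GL 8w pw1 replicate a (0.0526 to 0.0722).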

How the results depend on the processing

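The counts of the 9 S100 genes called were stable where they were 0 in Lrig1 GL cells for the second wound against the first and against 8w pw1, under every alternative run. For the Lrig1 GL time course, 2 by the test of the report, the count was 3 by DESeq2, 5 by edgeR's likelihood ratio test, 1 by limma-voom with quality weights, 1 with a trend on GC content removed, 0 with 2 surrogate variables, 0 with the replicate block, and 0 to 4 with 1 library left out. Over the 5 time points of Lrig1 GL cells against 0w, 45 tests in all, the 4 calls became 7 with DESeq2, 13 with the likelihood ratio test, 1 with limma-voom, 1 with 2 surrogate variables, 1 with the replicate block, and 0 to 6 with 1 library left out. The 0 calls of the Lgr5 GL time course became 1 with DESeq2, 1 with the likelihood ratio test, 1 with limma-voom, and 0 to 2 with 1 library left out. Lgr5 GL cells against 0w gave 1 call with DESeq2, and their second wound against the first 3 with DESeq2 and 1 with the likelihood ratio test. At 0w the 2 calls between the populations became 1 with the replicate block, which lost S100a14, 4 with the GC trend removed, and 1 to 3 with 1 library left out. Of the changes compared between populations 1 was called, against 4 with DESeq2, 4 with the likelihood ratio test, 2 with limma-voom, 0 with 2 surrogate variables, 0 with the replicate block, 0 with the GC trend removed, and 0 to 3 with 1 library left out. The cause was not tested for any of these. Whether equal replicate numbers mark a shared batch is not given in the sources used here. By column number, the deviations of same-numbered libraries had a mean correlation of -0.00644 over 33 pairs of Lrig1 GL libraries. Over 32 pairs of Lgr5 GL libraries it was 0.00393, and 1 and 2 of these pairs were over 0.1. A low mean correlation cannot exclude shared batches with 3 libraries per group. DESeq2 gave no adjusted p for 9 of the S100 results, which were left out of its calls.

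Some values that were not called changed sign. With 2 surrogate variables the log2 difference of S100a4 between the second and the first wound in Lgr5 GL cells was 0.049. With limma-voom S100a3 at 1w pw1 and S100a8 at 8w pw1 in Lgr5 GL cells were 0.27 and -1.06, and the difference between populations of S100a9 at 4w pw1 was -0.11. With a prior count of 2 that of S100a9 at 8w pw1 was -0.27. With 1 library left out, S100a4 in Lrig1 GL cells ranged from -1.34 to 0.66 at 2w pw1 and from -1.38 to 0.72 at 8w pw1, the highest without 0w replicate 2. S100a3 in Lrig1 GL cells ranged from -2.86 to 1.54 at 1w pw1 and from -1.79 to 1.53 at 8w pw1, and its difference between populations from -6.40 to 1.36 at 8w pw1 and from -5.90 to 1.85 at 1w pw2, the highest each time without Lrig1 GL 0w replicate 3. In the last of these it was also positive, at 0.63, without Lgr5 GL 1w pw2 replicate 1. S100a9 between the wounds in Lrig1 GL cells ranged from -2.80 to 0.38, the highest without 1w pw1 replicate 1. S100a3 at 1w pw1 in Lgr5 GL cells ranged from -2.17 to 3.50, the highest without 0w replicate a. S100a8 in Lgr5 GL cells ranged from -3.17, without 4w pw1 replicate b, to 3.43 at 4w pw1. Without Lgr5 GL 8w pw1 replicate c S100a8 and S100a9 were -1.75 and -0.88 at 8w pw1 (highest 3.82 and 5.53), and 1.79 and 1.33 for 1w pw2 against 8w pw1 (lowest -10.08 and -5.21). The difference between populations of S100a9 at 8w pw1 ranged from -2.02, without Lrig1 GL 8w pw1 replicate a, to 7.95.

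With 1.01 to 3.39 CPM for 3 counts in Lrig1 GL libraries, S100a3, S100a9 and the immune markers lie near the floor in many groups, and a low value there does not show that a gene is off. A group of 3 leaves the fold change of the alarmins to the few counts at 0w. Of 108 group means of the members 6 moved by more than 1 SD when the raw library total replaced the scaled one.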
